A study of Mus musculus with 16 samples.

Results

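The 10 genes described here carry the fibroblast growth factor (FGF) signal from ligand to feedback: the ligands *Fgf2*, *Fgf7*, *Fgf10* and *Fgf18*, the receptors *Fgfr1*, *Fgfr2* and *Fgfr3*, and the feedback genes *Spry2*, *Spry4* and *Dusp6*. They were taken by gene symbol from a table of 18990 genes, with 1 row for each symbol, and all 10 had a mean log2 CPM (CPM being the reads of a gene scaled to the size of its library) of at least 0 over the 16 libraries, which was the condition for testing. The cells were primary mouse embryonic fibroblasts (MEFs) of wild-type BL6 animals, reprogrammed at passage 2. All groups carried an inducible tet-STEMCCA lentivirus with *Oct4*, *Sox2*, *Klf4* and *c-Myc* together with rtTA, and all were grown in doxycycline with a GSK3 inhibitor (chiron), a TGFb (Alk5) inhibitor, ascorbic acid and LIF. Before induction, cells were transfected with pooled siRNAs (40 nM) against *Wdr5*, *Brca1* or *Bard1* (siWdr5, siBrca1 and siBard1) or with a non-targeting siRNA (nt control), and bulk RNA was sequenced at day 3 and day 6. Each of the 8 groups has 2 libraries from independent experiments. The lentiviruses were used at an MOI of 1, and no sorting of transduced or transfected cells is described. In such bulk libraries fewer cells of a type and less RNA per cell cannot be told apart.

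FGF ligands are secreted proteins that bind receptor tyrosine kinases together with heparan sulfate on the cell surface, and the receptors signal through adaptor proteins to RAS and the kinase ERK. ERK induces the Sprouty proteins, which block the path from receptor to RAS, and the phosphatase DUSP6, which inactivates ERK, so that *Spry2*, *Spry4* and *Dusp6* are used as readouts of the pathway as well as being its brakes. *Fgf7* and *Fgf10* are made by mesenchymal cells and act mainly on the epithelial splice form of *Fgfr2*, while *Fgf2* is a broad mitogen of fibroblasts.

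The 16 libraries hold 11169738 to 26832534 reads, with siWdr5 day 6 replicate 2 the deepest. A gene with 3 reads lies between 0.115 and 0.260 CPM, and the members have between 14 reads (*Fgfr3*, nt day 6 replicate 1) and 6151 reads (*Fgfr1*, siWdr5 day 6 replicate 2) in a library. The replicates of siBrca1 differed most, with a chi-square of 20.6 per degree of freedom at day 3 and 29.9 at day 6 against 5.69 to 14.2 in the other groups. The knockdowns were measured by their own transcripts. At day 3 *Wdr5* stood at 40.4% of its nt control mean in siWdr5, *Brca1* at 35.5% in siBrca1 and *Bard1* at 65.2% in siBard1. At day 6 the same genes stood at 83.1%, 100.3% and 107% of the nt control mean of that day. Each of these transcripts was also lower in the other knockdowns at day 3. *Bard1* averaged 29.8 CPM in the nt control, 14.6 in siWdr5, 11.8 in siBrca1 and 19.4 in siBard1. *Wdr5* averaged 131 CPM in the nt control, 71.6 in siBrca1 and 94.3 in siBard1. *Brca1* averaged 80.2 CPM in the nt control, 44.5 in siWdr5 and 61.9 in siBard1. Fibroblast markers were present in all libraries at both days, where *Col1a1* had at least 12744 reads and *Vim* at least 14733 in every library.

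The genes lie on 10 different chromosomes of mm10, among them *Fgf2* on chromosome 3 (37348346 to 37410108, plus strand), *Fgf7* on chromosome 2 (126034658 to 126091185, plus strand), *Fgf10* on chromosome 13 (118669791 to 118792115, plus strand) and *Fgf18* on chromosome 11 (33117430 to 33147400, minus strand). The receptor genes are on chromosome 8 (*Fgfr1*, 25513654 to 25575718, plus strand), chromosome 7 (*Fgfr2*, 130162451 to 133123350, minus strand) and chromosome 5 (*Fgfr3*, 33721674 to 33737068, plus strand). *Dusp6* lies on chromosome 10 (99263231 to 99267489, plus strand). Gene models of other genes share part of the exons: 3.76% of the *Fgf2* exon bases with a transcript on the same strand and 3.04% of those of *Fgfr2* with *Ctbp2*. The annotated start of *Fgfr2*, at 133123350 on the minus strand, lies upstream of the RefSeq start used for its promoter below. On the opposite strand 13.9% of the exon bases of *Fgfr3*, 9.44% of those of *Fgf2* (with *Nudt6*), 2.67% of those of *Fgf10* and 1.66% of those of *Fgfr1* are shared. Whether the authors' counting used strand is not given in the sources used here, so reads of these stretches cannot be told apart.

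Promoter sequences are shown for *Fgf7* and *Fgfr2*, which were higher in all 3 knockdowns at day 3, and for *Dusp6*, which rose most in the nt control between the days. Each is the 250 bases before the RefSeq start in GRCm38.p6, written 5′ to 3′ on the strand of the gene, for *Fgf7* chr2:126034408-126034657 (plus strand), for *Fgfr2* chr7:130266809-130267058 (minus strand) and for *Dusp6* chr10:99262981-99263230 (plus strand), with CCAAT on either strand in capitals.
*Fgf7*: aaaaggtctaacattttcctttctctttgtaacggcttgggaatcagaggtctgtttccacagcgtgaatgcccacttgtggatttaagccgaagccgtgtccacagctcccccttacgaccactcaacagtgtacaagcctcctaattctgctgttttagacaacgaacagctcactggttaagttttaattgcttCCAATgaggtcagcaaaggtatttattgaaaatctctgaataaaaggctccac
*Fgfr2*: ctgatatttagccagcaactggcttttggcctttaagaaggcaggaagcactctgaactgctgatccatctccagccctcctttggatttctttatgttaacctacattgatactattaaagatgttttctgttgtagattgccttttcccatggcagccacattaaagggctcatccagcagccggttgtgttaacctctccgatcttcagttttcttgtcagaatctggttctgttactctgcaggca
*Dusp6*: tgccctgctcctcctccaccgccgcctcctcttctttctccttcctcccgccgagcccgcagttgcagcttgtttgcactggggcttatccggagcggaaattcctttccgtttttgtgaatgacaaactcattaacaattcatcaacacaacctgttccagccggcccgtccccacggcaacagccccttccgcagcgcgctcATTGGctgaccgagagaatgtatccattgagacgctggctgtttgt
The GC content of these windows is 43.6% for *Fgf7*, 44.0% for *Fgfr2* and 56.4% for *Dusp6*, against a median of 52.0% over 27025 promoters of the same length. The window of *Fgf2*, which was also higher in all 3 knockdowns at day 3, is not printed. Its GC content is 62.4%, and it has GGGCGG 49 bases before the start. CCAAT, a common promoter element, was found in 34.5% of all promoters and lies 53 bases before the start of *Fgf7* and, as its complement, 46 bases before that of *Dusp6*. The letters TGANTCA (bound by AP-1, present in 6.87% of promoters), CCGGAA (ETS factors, 12.2%), GGAATG (TEAD factors, 12.6%) and TATAAA (13.0%), searched on both strands, are in none of the 8 member promoters that matched by symbol and could be read. GGGCGG (SP and KLF factors, 32.9%) is in the promoters of *Fgf2*, *Fgf10*, *Fgf18* and *Fgfr3* and in none of the 3 windows printed.

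In the nt control at day 3, the feedback gene *Spry2* and the receptor *Fgfr1* had the highest levels per length, and *Fgf10* and *Fgfr3* the lowest. On the scale of CPM per kb of exon, *Spry2* stood at 18.7 ± 0.790 (mean ± SD, n = 2), *Fgfr1* at 18.02 ± 1.196, *Spry4* at 9.18 ± 0.0211, *Dusp6* at 8.12 ± 0.193 and *Fgfr2* at 6.73 ± 0.470. The ligands followed, with *Fgf18* at 4.90 ± 0.712, *Fgf7* at 3.14 ± 0.265, *Fgf2* at 1.44 ± 0.282 and *Fgf10* at 1.07 ± 0.0718, and *Fgfr3* stood at 0.938 ± 0.244. Neighbours in this order overlapped in their 2 libraries for *Spry2* and *Fgfr1* and for *Fgf10* and *Fgfr3*, and were separate otherwise. The *Fgf18* level rests on an annotated exon length of 1187 bases, the shortest of the 10. At day 6 the order had changed: *Dusp6* led with 23.8 ± 1.27, overlapping *Spry2* at 22.9 ± 0.833, *Fgf10* was the highest of the ligands with 3.07 ± 0.129, overlapping *Fgf18* at 2.47 ± 1.04, and *Fgfr3* fell behind all others with 0.231 ± 0.0784.

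**Figure D1:**
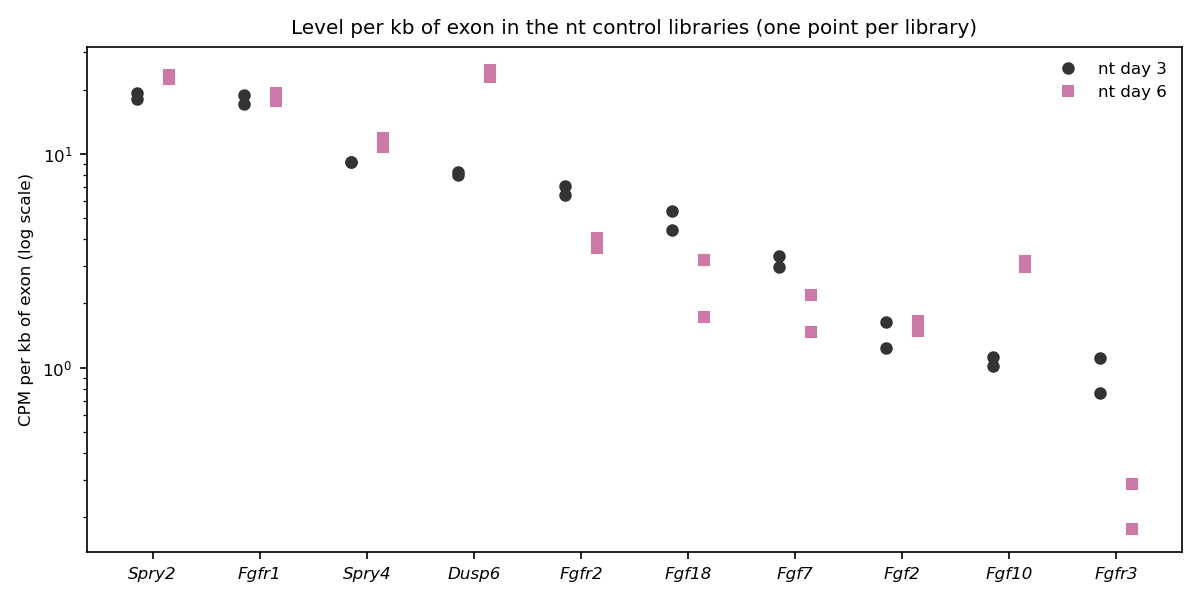
Level of the 10 genes in the nt control in CPM per kb of exon (vertical axis, log scale), with 1 point for each library at day 3 (circles) and day 6 (squares) and genes ordered by their day 3 mean. *Dusp6* moves from 8.12 to 23.8, *Fgf10* from 1.07 to 3.07 and *Fgfr3* from 0.938 to 0.231, while *Fgfr1* stays near 18.02.

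The first comparison asks how the pathway moved as the control cells reprogrammed. From day 3 to day 6 of the nt control, 3 of the 10 genes rose and 4 fell at an adjusted p below 0.05 (limma, adjusted by the Benjamini-Hochberg method over 14028 genes), where 19.0% of all genes tested rose and 27.1% fell. The median log2-fold change of the 10 was 0.09 against −0.07 over all genes. Those that rose were the ligand *Fgf10* and the feedback genes *Dusp6* and *Spry2*. Those that fell were the ligands *Fgf7* and *Fgf18* and the receptors *Fgfr2* and *Fgfr3*.

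*Fgf10* stood at 4.69 and 5.16 CPM in the nt control libraries of day 3 and at 14.5 and 13.7 CPM in those of day 6. Both later libraries were higher, by a log2-fold change of 1.52 (SE 0.25, limma adjusted p = 0.000190). *Fgf7* fell from 10.8 and 9.60 CPM to 7.09 and 4.76 CPM. The change was −0.81 (SE 0.22, adjusted p = 0.00713), and it did not pass without nt day 3 replicate 1 or without nt day 6 replicate 2 (adjusted p up to 0.111). *Fgf18*, a ligand best known from bone and lung, stood at 5.22 and 6.41 CPM at day 3 and at 2.06 and 3.80 CPM at day 6, lower in both later libraries (−1.05, SE 0.31, adjusted p = 0.0117, up to 0.182 without nt day 3 replicate 2 or nt day 6 replicate 1). For *Fgf2* the libraries of the days overlapped, with 8.38 and 11.1 CPM against 11.2 and 10.1 CPM, and the difference of 0.14 (95% interval −0.24 to 0.52) did not pass.

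Among the receptors, *Fgfr1* held its level in the nt control, with 186 and 170 CPM at day 3 and 174 and 191 CPM at day 6 (0.04, 95% interval −0.20 to 0.27). *Fgfr2* stood at 66.1 and 73.0 CPM and then at 37.5 and 41.6 CPM. It was lower in both later libraries (−0.81, SE 0.25, adjusted p = 0.0139, up to 0.0845 without nt day 3 replicate 2 or nt day 6 replicate 1). *Fgfr3* had the largest change of the 10, from 5.48 and 7.95 CPM to 1.26 and 2.05 CPM (−2.04, SE 0.29, adjusted p = 4.69e-05), on 81 and 137 reads at day 3 and 14 and 24 reads at day 6.

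The phosphatase gene *Dusp6* stood at 25.0 and 25.9 CPM in the nt control at day 3 and at 71.8 and 77.4 CPM at day 6, a log2-fold change of 1.55 (SE 0.17, adjusted p = 6.65e-06). The Sprouty genes moved less. *Spry2* went from 40.1 and 37.8 CPM to 49.1 and 46.6 CPM, with the day 6 libraries above those of day 3 (0.30, SE 0.11, adjusted p = 0.0339), but its call was lost without any 1 of the 4 libraries (adjusted p up to 0.182). *Spry4* stood at 43.7 and 43.6 CPM and then at 51.3 and 56.4 CPM, and the difference of 0.30 did not pass (adjusted p = 0.0819). Over the same days the 6 epithelial markers all rose, from a sum of 44.2 to 66.2 CPM to a sum of 566 to 762 CPM in the nt control, while the summed fibroblast markers went from 7701 to 8696 CPM down to 4631 to 4821 CPM, with 2 of 7 higher and 3 lower. Of all genes tested, 19.0% rose and 27.1% fell at the same threshold. All 4 pluripotency markers tested rose, from a sum of 1.39 to 2.53 CPM to a sum of 99.6 to 109 CPM. Their part in the changes of the FGF genes was not tested.

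**Figure D2:**
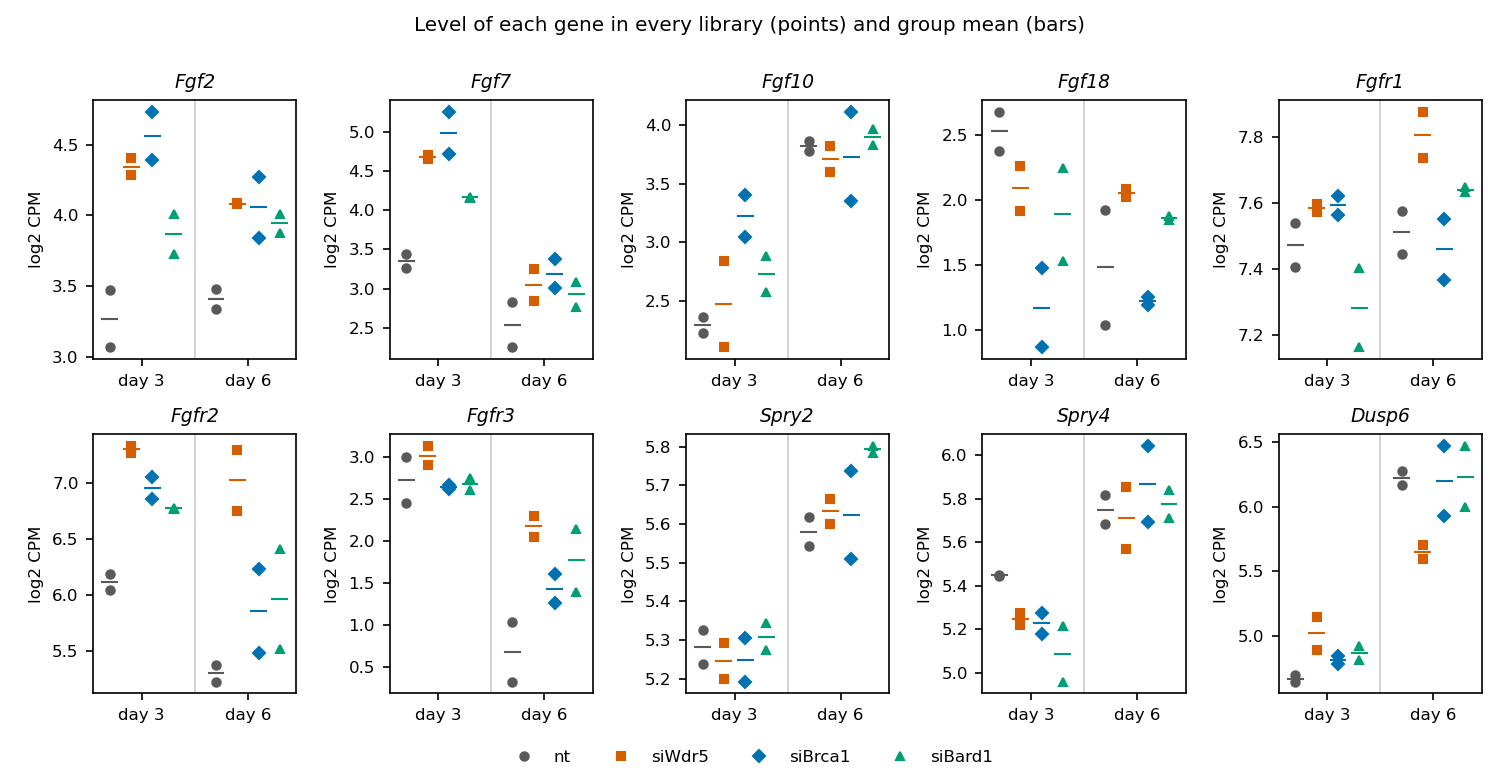
Level of each of the 10 genes in all 16 libraries as log2 CPM (vertical axes, each with its own range), with points for libraries and bars for group means, nt control and the 3 knockdowns at day 3 on the left and day 6 on the right of each panel. *Fgf2*, *Fgf7* and *Fgfr2* are higher in both libraries of every knockdown than in the nt control at day 3, and *Dusp6*, *Spry2* and *Spry4* are higher at day 6 than at day 3 in all groups.

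At day 3 the knockdowns were compared with the nt control, to ask which parts of the pathway differed when *Wdr5*, *Brca1* or *Bard1* was depleted. In siWdr5, 4 of the 10 genes were higher and 0 lower (background 18.3% higher and 16.8% lower of all genes tested). In siBrca1, 4 were higher and 1 lower (background 25.4% and 21.8%), and in siBard1 3 were higher and 0 lower (background 8.67% and 5.87%). The ligands *Fgf2* and *Fgf7* and the receptor *Fgfr2* were higher in each of the 3 comparisons, which share the nt control libraries. The median log2-fold change of the 10 genes was 0.23, 0.13 and 0.11 in siWdr5, siBrca1 and siBard1, against −0.04, 0.0022 and −0.02 over all genes tested. Both knockdown libraries lay above both nt control libraries for 5, 6 and 5 of the 10, where 34.9%, 38.8% and 30.2% of all genes tested did so, and below them for 2, 2 and 3 (39.6%, 38.3% and 33.7% of all genes). With a further threshold of 1 on the absolute log2-fold change, 3 members passed in siWdr5, 3 in siBrca1 and 0 in siBard1, and the settings named for single genes below leave this threshold aside.

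*Fgf2* stood at 8.38 and 11.1 CPM in the nt control, 19.5 and 21.2 CPM in siWdr5, 21.0 and 26.6 CPM in siBrca1 and 13.2 and 16.1 CPM in siBard1. All 6 knockdown libraries lay above both controls. In siWdr5 the log2-fold change reached 1.08 (SE 0.18, limma adjusted p = 0.000490) and in siBrca1 1.29 (adjusted p = 7.07e-05), and both held under every other alternative. In siBard1 it was 0.60 (adjusted p = 0.0373), a call that was lost with no filter, with no trend in the moderation, and without nt day 3 replicate 1 or either siBard1 library (adjusted p up to 0.317). *Fgf2* differed between siBrca1 and siBard1, by 0.70 (SE 0.18, adjusted p = 0.0149), and this difference did not pass with no filter, with no trend, and without siBrca1 replicate 2 or either siBard1 library (adjusted p up to 0.102).

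*Fgf7*, the keratinocyte growth factor, was the ligand that moved most, from 10.8 and 9.60 CPM in the nt control to 25.1 and 26.1 CPM in siWdr5, 26.3 and 38.1 CPM in siBrca1 and 17.9 and 17.9 CPM in siBard1. Again no knockdown library overlapped the controls. Its level rose by a log2-fold change of 1.33 with siWdr5 (SE 0.16, adjusted p = 6.66e-05), of 1.63 with siBrca1 (adjusted p = 8.34e-06) and of 0.81 with siBard1 (adjusted p = 0.00653). The first 2 held under every other alternative, and the last was lost with no trend in the moderation and without nt day 3 replicate 2 or either siBard1 library (adjusted p up to 0.0712). The difference of 0.82 between siBrca1 and siBard1 passed (SE 0.16, adjusted p = 0.00573), but not without siBard1 replicate 2 (adjusted p = 0.0961) or with no trend (adjusted p = 0.0557).

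The other 2 ligands moved in siBrca1 only as far as the tests against the nt control go. *Fgf10* stood at 4.69 and 5.16 CPM in the nt control, 4.30 and 7.17 CPM in siWdr5, 8.25 and 10.5 CPM in siBrca1 and 5.95 and 7.36 CPM in siBard1. The siWdr5 libraries lay on either side of the controls, and the siBrca1 libraries lay above all others (log2-fold change 0.92, SE 0.24, adjusted p = 0.00655). The direct difference between siWdr5 and siBrca1, −0.75, did not pass (adjusted p = 0.0518). *Fgf18* went the other way, with 5.22 and 6.41 CPM in the nt control, 4.80 and 3.79 CPM in siWdr5, 2.79 and 1.82 CPM in siBrca1 and 4.76 and 2.89 CPM in siBard1. All knockdown libraries were below the controls, and the change passed in siBrca1 (−1.36, SE 0.29, adjusted p = 0.00169, on 36 and 24 reads against 77 and 110) but neither in siWdr5, at −0.44, nor in siBard1, at −0.64 (adjusted p = 0.257 and 0.148). *Fgf18* was higher in siWdr5 than in siBrca1 by 0.92 (SE 0.29, adjusted p = 0.0458), a call lost under 5 of the other settings that keep all libraries and without siWdr5 replicate 1, siWdr5 replicate 2 or siBrca1 replicate 2.

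*Fgfr2* was the receptor that rose. It stood at 66.1 and 73.0 CPM in the nt control, 154 and 161 CPM in siWdr5, 116 and 133 CPM in siBrca1 and 108.8 and 110.0 CPM in siBard1. Its libraries fell in 4 separate groups without overlap. Its log2-fold changes of 1.18 with siWdr5 (SE 0.11), 0.84 with siBrca1 and 0.66 with siBard1 all passed (adjusted p = 5.64e-06, 4.10e-05 and 0.00170), the last of them not in the fit of all 16 libraries (adjusted p = 0.0987). The changes in siBrca1 and siBard1 lie below the threshold of 1. *Fgfr2* was higher in siWdr5 than in siBard1 by 0.53 (SE 0.11, adjusted p = 0.00865) and than in siBrca1 by 0.34 (adjusted p = 0.0433). Both differences failed in the fit of all 16 libraries, with no trend and without either siWdr5 library (adjusted p up to 0.218 and 0.401). The first also failed without siBard1 replicate 2, and the second with no filter, with only the compared groups and without siBrca1 replicate 1.

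The other receptors did not pass at day 3. *Fgfr1*, the receptor with the most reads, stood between 143 and 197 CPM in all 8 libraries, with log2-fold changes of 0.11 in siWdr5 (95% interval −0.12 to 0.34), 0.12 in siBrca1 (−0.11 to 0.35) and −0.19 in siBard1 (−0.42 to 0.04). *Fgfr3* stood at 5.48 and 7.95 CPM in the nt control and between 6.06 and 8.72 CPM in the knockdowns. Its 3 intervals lay within −0.53 and 0.73.

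The feedback genes changed little at day 3 beside the ligands and *Fgfr2*. *Dusp6* stood at 25.0 and 25.9 CPM in the nt control, 29.7 and 35.4 CPM in siWdr5, 28.7 and 27.4 CPM in siBrca1 and 28.0 and 30.2 CPM in siBard1. All knockdown libraries were above the controls, but only the siWdr5 change passed, with 0.35 (SE 0.13, adjusted p = 0.0453), and it was lost with no filter, in the fit of all 16 libraries, with no trend, and without nt day 3 replicate 1, nt day 3 replicate 2 or siWdr5 replicate 2 (adjusted p up to 0.311). *Spry2* ranged from 36.6 to 40.6 CPM over all 8 libraries, and its 3 intervals lay within −0.28 and 0.27. *Spry4* stood at 43.7 and 43.6 CPM in the nt control and between 31.1 and 38.8 CPM in the knockdowns. Every knockdown library was below the controls, with log2-fold changes of −0.20 in siWdr5, −0.22 in siBrca1 and −0.36 in siBard1 that did not pass (adjusted p = 0.210, 0.146 and 0.0582), the last passing with only the compared groups in the fit (adjusted p = 0.0332).

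**Figure D3:**
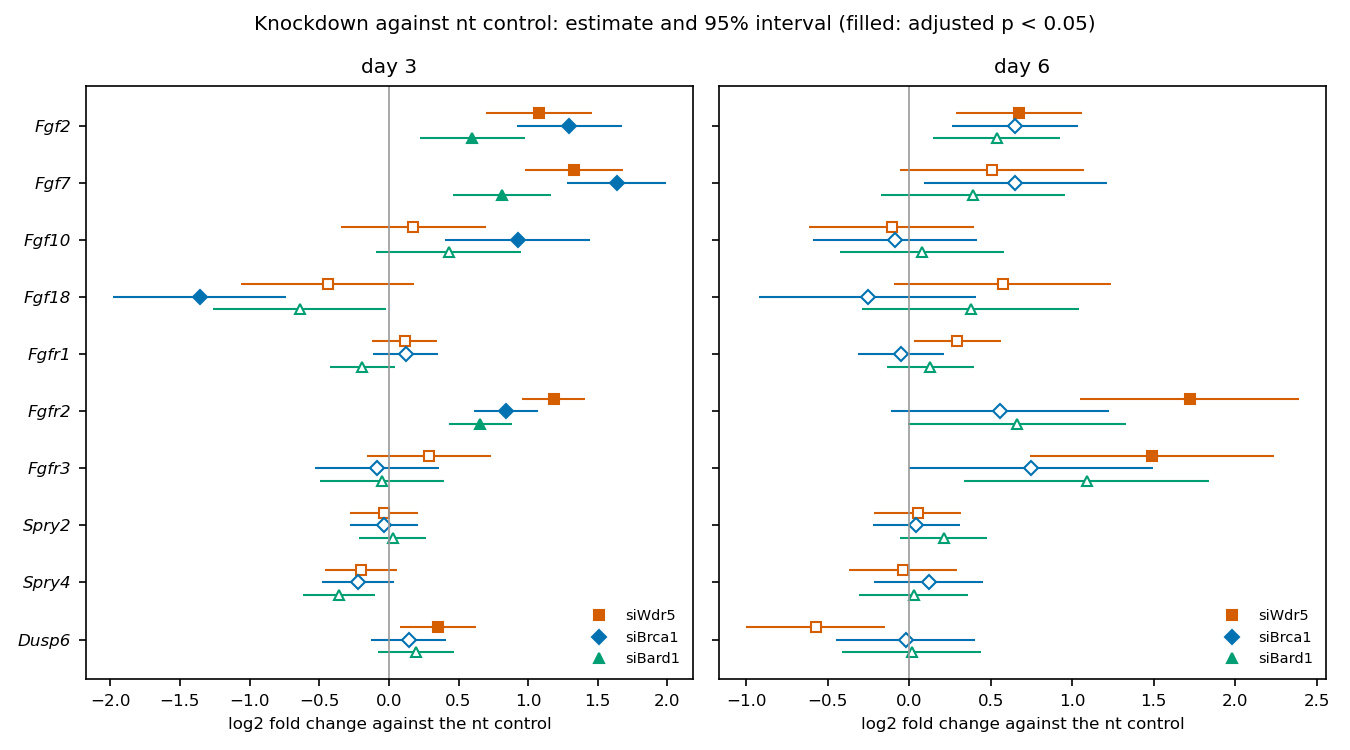
Log2-fold change of the 10 genes in siWdr5 (squares), siBrca1 (diamonds) and siBard1 (triangles) against the nt control at day 3 (left) and day 6 (right), with 95% intervals from limma and filled symbols for an adjusted p below 0.05. At day 3 *Fgf7* reaches 1.33, 1.63 and 0.81 and *Fgfr2* 1.18, 0.84 and 0.66, and at day 6 filled symbols remain in siWdr5 alone, for *Fgf2*, *Fgfr2* and *Fgfr3*.

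At day 6, 3 of the 10 genes were higher in siWdr5 and 0 were lower (background 16.1% higher and 5.70% lower), while in siBrca1 and siBard1 0 passed. In siBrca1 the background was also 0% in both directions, and in siBard1 it was 0.0784% higher and 0% lower. Both knockdown libraries lay above both nt control libraries for 6, 4 and 5 of the 10 in siWdr5, siBrca1 and siBard1. Over all genes tested 41.3%, 21.9% and 34.2% did so. They lay below for 1, 0 and 0 of the 10, and for 27.4%, 15.0% and 17.4% of all genes tested. Before adjustment, 2 genes had a limma p below 0.05 in siBrca1 (*Fgf2* and *Fgf7*) and 2 in siBard1 (*Fgf2* and *Fgfr3*). The share of all genes at that unadjusted threshold was not computed, so whether these counts exceed it is not known. By limma-voom 0 members passed in either. At day 6 *Brca1* averaged 38.0 CPM in siBrca1 and 37.9 in the nt control. *Bard1* averaged 13.5 CPM in siBard1 and 12.6 in the nt control. At day 3 these means were 28.4 and 80.2 CPM for *Brca1* and 19.4 and 29.8 CPM for *Bard1*. The nt control level of both transcripts was thus lower at day 6 than at day 3. *Wdr5* in siWdr5 stood at 83.1% of its day 6 control. The part of these target levels in the counts was not tested.

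*Fgfr2* stood at 37.5 and 41.6 CPM in the nt control of day 6 and at 108 and 157 CPM in siWdr5, which is above both controls (log2-fold change 1.72, SE 0.30, limma adjusted p = 0.00645). In siBrca1 it stood at 44.8 and 75.1 CPM and in siBard1 at 85.1 and 45.9 CPM, so that replicates of 1 group spread widely, and the changes of 0.55 and 0.66 did not pass (adjusted p = 0.671 and 0.371). *Fgfr3* stood at 1.26 and 2.05 CPM in the nt control, 4.13 and 4.91 CPM in siWdr5, 2.39 and 3.04 CPM in siBrca1 and 4.42 and 2.63 CPM in siBard1. All 6 knockdown libraries were above the controls, and the change passed in siWdr5 (1.49, SE 0.34, adjusted p = 0.0144). Without siWdr5 day 6 replicate 2, the deepest library, neither receptor passed (adjusted p up to 0.0896 for *Fgfr2* and 0.136 for *Fgfr3*), and *Fgfr3* also failed without nt day 6 replicate 1. *Fgfr1* reached 213 and 235 CPM in siWdr5 against 174 and 191 CPM in the nt control (0.29, adjusted p = 0.102).

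*Fgf2* was still at 17.0 and 16.9 CPM in siWdr5 at day 6 against 11.2 and 10.1 CPM in the nt control, with 14.4 and 19.4 CPM in siBrca1 and 16.2 and 14.7 CPM in siBard1. Every knockdown library was above the controls, and the change passed in siWdr5 (0.67, SE 0.18, adjusted p = 0.0232) but not without any 1 of its 4 libraries (adjusted p up to 0.141). In siBrca1 and siBard1 the log2-fold changes were 0.65 (95% interval 0.26 to 1.04, adjusted p = 0.414) and 0.54 (0.15 to 0.92, adjusted p = 0.244). *Fgf7* stood at 7.09 and 4.76 CPM in the nt control and between 6.82 and 10.4 CPM in the knockdowns, with changes of 0.51, 0.65 and 0.39 in siWdr5, siBrca1 and siBard1 that did not pass. *Fgf10* ranged from 10.2 to 17.3 CPM, with both ends in siBrca1, and *Fgf18* from 2.06 to 4.26 CPM, and neither passed in any knockdown.

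Of the feedback genes, *Dusp6* was the one set apart at day 6. It stood at 71.8 and 77.4 CPM in the nt control and at 52.0 and 48.2 CPM in siWdr5, lower in both libraries, with 88.6 and 60.8 CPM in siBrca1 and 63.9 and 88.7 CPM in siBard1. The log2-fold change in siWdr5 was −0.57 (SE 0.19, adjusted p = 0.0565), just short of the threshold, and it passed with only the compared groups, in the fit of all 16 libraries, with median centring and with quantile normalization (adjusted p down to 0.00600). *Spry2* stood between 45.5 and 55.8 CPM and *Spry4* between 47.5 and 65.9 CPM, with no change past the threshold.

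Whether a knockdown's change differed between the days was tested directly. In siBard1 the difference passed for 0 of the 10 genes (background 0.0499%) by limma and for 0 by limma-voom. There 2 members had an unadjusted p below 0.05 by limma, a threshold at which the share of all genes was not computed. The difference passed for 1 of the 10 genes in siWdr5 (background 4.43%) and for 1 in siBrca1 (background 20.5%). In siWdr5 it was *Dusp6*, higher than the nt control at day 3 and lower at day 6 (difference −0.92, SE 0.24, limma adjusted p = 0.0434). In siBrca1 it was *Fgf7*, whose change was smaller at day 6 than at day 3 (difference −0.98, SE 0.31, adjusted p = 0.0370). Neither held when single libraries were left out: the *Dusp6* difference failed in all 8 such fits (adjusted p up to 0.152), and the *Fgf7* difference passed only without siBrca1 day 3 replicate 1, nt day 6 replicate 2 or siBrca1 day 6 replicate 2. For *Fgfr3* in siWdr5 the difference of 1.20 did not pass (adjusted p = 0.0904), and for *Fgfr2* it was 0.54 (95% interval −0.21 to 1.29).

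Between the knockdowns at day 3, 2 of the 10 genes differed between siWdr5 and siBrca1 (background 15.7%), 1 between siWdr5 and siBard1 (background 8.63%) and 2 between siBrca1 and siBard1 (background 21.4%). They are the differences of *Fgf18*, *Fgfr2*, *Fgf2* and *Fgf7* given above. For *Spry2* the 3 intervals lay within −0.30 and 0.24 and for *Dusp6* within −0.33 and 0.48.

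Of the 18 other *Fgf* genes listed, 11 were in the table and 3 were tested (*Fgf4*, *Fgf13* and *Fgf16*), the rest having at most 23 reads in any library. *Fgf16* fell in all 3 knockdowns at day 3, by −1.39 in siWdr5, −1.54 in siBrca1 and −1.05 in siBard1 (limma adjusted p = 0.00283, 0.000787 and 0.0313), on 14 to 67 reads in a library. *Fgf4*, a ligand of pluripotent cells, was lower in siBrca1 (−0.84, adjusted p = 0.00642). Of the 6 tested receptors and co-receptors outside the list, 3 were higher in siWdr5, 3 in siBrca1 and 2 in siBard1 at day 3, with 0 lower. The background over all genes tested was 18.3%, 25.4% and 8.67% higher and 16.8%, 21.8% and 5.87% lower. *Cdh2*, which encodes N-cadherin and can bind FGF receptors, rose by 0.92, 0.53 and 0.52, and *Ncam1*, a neural adhesion molecule that does the same, by 0.89 in siWdr5 and 0.79 in siBrca1, against 0.22 in siBard1, which did not pass. The decoy-like receptor gene *Fgfrl1* was higher in siBrca1 (0.90), and *Flrt3* in siBard1 (0.65).

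Of the 19 genes of heparan sulfate and FGF carriers, 11 were higher and 1 lower in siWdr5 (median log2-fold change 0.50), 13 and 2 in siBrca1 (0.43), and 6 and 1 in siBard1 (0.20), against the medians over all genes given above. Over all genes tested, 18.3%, 25.4% and 8.67% were higher and 16.8%, 21.8% and 5.87% lower in the same comparisons, which is the background for these and the following counts at day 3. The syndecan gene *Sdc3* rose by 1.62, 1.96 and 0.75 in siWdr5, siBrca1 and siBard1 (adjusted p = 2.49e-05, 4.10e-06 and 0.0138) and the glypican gene *Gpc4* by 1.18, 1.39 and 0.80 (adjusted p = 1.44e-05, 3.06e-06 and 0.00105). *Sulf1*, an enzyme that trims sulfate groups from heparan sulfate, rose in siWdr5 (0.99) and siBrca1 (0.74). *Fgfbp1*, which releases FGFs from the matrix, went against the group, lower in siBrca1 (−0.94) and siBard1 (−0.58). At day 6 in siWdr5 14 of the 19 were higher and 1 lower, and in the nt control between the days 3 were higher and 8 lower. The background over all genes tested was 16.1% higher and 5.70% lower in siWdr5 at day 6. Between the days of the nt control it was 19.0% higher and 27.1% lower.

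Of the 20 relay genes from receptor to ERK, 7 were higher and 1 lower in siWdr5 at day 3, 9 and 1 in siBrca1, and 1 and 0 in siBard1, where the share higher is below the background of 8.67%. The docking protein gene *Frs2* rose in all 3 (0.52, 0.75 and 0.45), the scaffold gene *Ksr1* most in siWdr5 (1.20), and *Mapk3*, which encodes an ERK kinase, most in siBrca1 (1.11). Of the 14 tested feedback inhibitors outside the list, 4 were higher and 1 lower in siWdr5, 5 and 0 in siBrca1 and 1 and 0 in siBard1, the last again below the background of 8.67%. *Dusp1*, a nuclear phosphatase of MAP kinases, rose by 1.14, 1.47 and 0.81 (adjusted p = 1.87e-05, 2.20e-06 and 0.000976), where *Dusp6* rose by 0.35 in siWdr5 and stood at 0.14 and 0.20 in the others. *Dusp4* and *Spred3* rose in siWdr5 (0.75 and 0.57) and siBrca1 (1.26 and 1.01), and *Dusp5* fell in siWdr5 (−0.60).

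The ERK-responsive transcripts had 5 of 10 higher and 1 lower in each knockdown at day 3, with medians of 0.42, 0.36 and 0.32. *Ier3*, *Epha2*, *Phlda1* and *Fosl1* were among those higher in each, *Ier3* by 1.13, 1.29 and 0.74 and *Epha2* by 0.63, 1.14 and 0.60. Of 4 factors that set the splice form of FGF receptors, *Esrp2*, which favours the epithelial form, fell in siWdr5 (−0.75, adjusted p = 0.0378) and siBrca1 (−1.04, adjusted p = 0.00464), *Rbfox2* rose in both (0.37 and 0.38), and *Ptbp1* fell in siBrca1 (−0.51) and siBard1 (−0.39). Gene-level values do not separate the receptor splice forms.

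**Figure D4:**
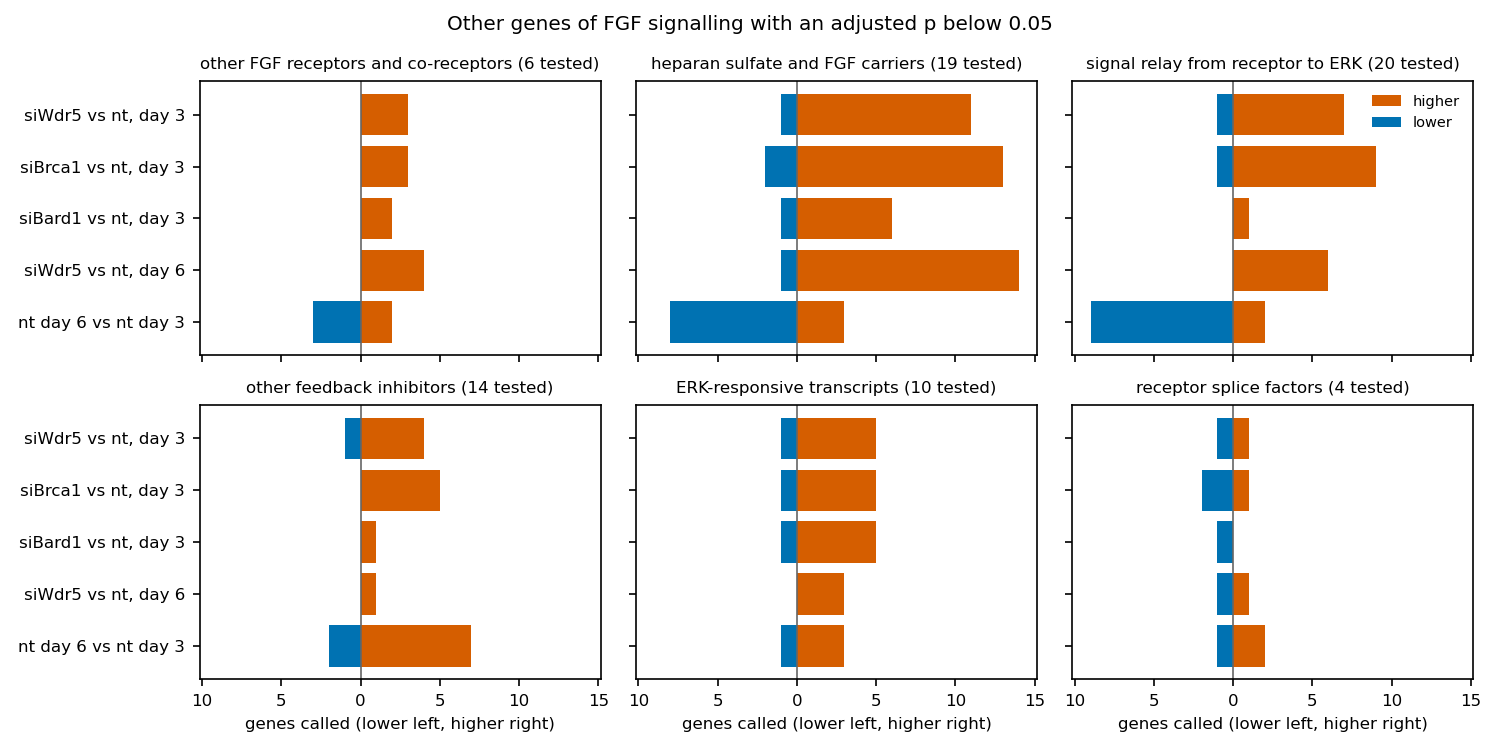
Number of genes of 6 other lists of FGF signalling that passed an adjusted p below 0.05 (horizontal axes, higher to the right and lower to the left) in 5 comparisons, with the number tested over each panel. Heparan sulfate and FGF carriers have 11, 13 and 6 higher at day 3 and 14 higher in siWdr5 at day 6, and the relay genes have 9 lower in the nt control between the days. Of all genes tested, 18.3%, 25.4% and 8.67% were higher at day 3 and 16.1% in siWdr5 at day 6. Between the days of the nt control 27.1% were lower.

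Markers of cell types moved with these groups. The 7 fibroblast markers summed to 7701 to 8696 CPM in the nt control at day 3, 13611 to 14124 CPM in siWdr5, 11520 to 12666 CPM in siBrca1 and 9608 to 11181 CPM in siBard1, with 6, 5 and 0 of them higher and 0 lower. The 6 epithelial markers summed to 44.2 to 66.2, 20.8 to 21.0, 23.9 to 36.4 and 36.9 to 45.2 CPM in the same order, with 3 lower in siWdr5, 2 lower and 1 higher in siBrca1 and 0 called in siBard1. At day 6 the fibroblast sum was 8954 to 12279 CPM in siWdr5 against 4631 to 4821 CPM in the nt control (5 of 7 higher), and the epithelial sum was 367 to 487 CPM against 566 to 762 CPM (4 of 6 lower). Of all genes tested, 16.1% were higher and 5.70% lower in siWdr5 at day 6. Markers of other cell types summed to less than the fibroblast markers in every library. The macrophage sum was 7.24 to 23.3 CPM, the endothelial sum 15.9 to 59.9 CPM and the keratinocyte sum 1.50 to 9.30 CPM. *Tek* had 170 to 886 reads in a library, where no other endothelial marker had more than 45. In siWdr5 at day 3 the endothelial sum was 53.1 to 59.9 CPM, above the epithelial sum. It was 41.6 to 42.6 CPM in the nt control, 25.2 to 43.6 CPM in siBrca1 and 41.2 to 49.2 CPM in siBard1. The macrophage marker *Ptprc* has no row in the table. None of the markers with a row was at 0 reads in all libraries, but *Adgre1*, *Tyrobp*, *Pecam1*, *Cdh5*, *Krt5*, *Krt14* and *Dsg3* were at 0 in at least 1, *Emcn* had at most 3 reads in any, and at day 3 the macrophage list had 1 of 3 tested higher in siWdr5 and 2 in siBrca1, and the keratinocyte list 1 of 2 higher in siWdr5. Their part was not tested. The pluripotency markers summed to 0.958 to 2.53 CPM at day 3 and 29.4 to 262 CPM at day 6, with 1 of 4 lower in siWdr5 at day 6. The part of the cell mixture in the changes of the FGF genes was not tested.

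Across the 8 group means the 3 feedback genes had like patterns, with Pearson's r of 0.89 for *Spry2* with *Spry4*, 0.92 for *Spry2* with *Dusp6* and 0.89 for *Spry4* with *Dusp6*. The ligand *Fgf10* ran with them too, least with *Spry4* (0.88 with *Spry2*, 0.78 with *Spry4* and 0.89 with *Dusp6*). *Fgf7* ran with *Fgfr2* (0.77) and *Fgfr3* (0.78) and against the feedback genes (−0.80 with *Spry2*, −0.85 with *Spry4* and −0.75 with *Dusp6*). These are descriptions over 8 points that share 2 days and the depth of their libraries. Among all genes tested, the 3 whose group means were most like *Fgfr2* were *Runx2* (r = 0.994), *Ckap4* (0.990) and *Svep1* (0.990). For the ligands these were *Map1a* (0.987), *Qsox1* (0.981) and *Sik3* (0.979) for *Fgf2*, and *Esyt2* (0.993), *1810013L24Rik* (0.990) and *Gm13372* (0.989) for *Fgf7*. *Fgf10* was nearest to *Tor4a* (0.988), *Lgmn* (0.986) and *AI661453* (0.986), and *Fgf18* to *Suv39h1* (0.991), *Tbccd1* (0.987) and *Nubp2* (0.977). *Fgfr1* was nearest to *Cox6a1* (0.966), *Haghl* (0.961) and *Pik3r2* (0.954), the lowest values of the 10, and *Fgfr3* to *Atp2a2* (0.997), *Smad5* (0.996) and *Preb* (0.994). For the feedback genes they were *Sphk1* (0.991), *Sema6a* (0.990) and *Bhlhe22* (0.988) for *Spry2*, *Hspa12b* (0.979), *Slc18a1* (0.979) and *Gm8692* (0.9748) for *Spry4*, and *1110012L19Rik* (0.993), *Sec61g* (0.992) and *Arhgap6* (0.991) for *Dusp6*.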

How the data were processed

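The authors depleted ribosomal RNA, prepared libraries with the Kapa RNA HyperPrep kit and aligned reads to mm10 with STAR 2.5.2b, and the deposited values are log2 CPM of 18990 genes from edgeR 3.20.9, per the labels and the paper's methods, with scaling between libraries and a prior count that keeps a gene without reads finite. The read counter, its annotation and its use of strand are not given in the sources used here. All 16 columns were mapped to samples by their titles. Deposited values were taken off the log2 scale to give CPM. Whole reads were recovered for 100% of values (within 0.1 of a whole number), for depth and for an alternative fit.

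The 14028 genes whose log2 CPM averaged 0 or more over the 16 libraries were fitted with limma 3.58.1 in R 4.3.3, moderated with a trend on mean expression: the 8 libraries of a day for knockdown comparisons, all 16 for comparisons across days. P-values are two-sided, adjusted by Benjamini-Hochberg over all genes tested, and called below 0.05. Exon lengths and positions are from GENCODE vM21 (18969 of 18990 identifiers matched), and promoters from RefSeq (8 members read, *Fgfr1* not matched, *Spry4* not read). The 10 members and all lists were chosen with earlier results of these data known. Named genes outside the 10 are, for each list, up to 4 with the largest change among those called in a day 3 knockdown, and for each member the 3 genes with the highest correlation. Alternatives were other filters (none, or 2), other libraries in the fit, no trend, pseudocounts of 1 and 0.1 CPM, 2 other scalings, limma-voom on the recovered reads, a replicate block, a fold threshold of 1 on the log2 scale, and single libraries left out. The limma fit was tried on simulated data for siWdr5 against the nt control at day 3, with equal spread in all groups and few changed genes. Unequal spread between groups, as in the real replicates, was not covered by that trial.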

Additional observations from a re-analysis of the deposited data

Results flagged for a closer look

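The difference of a knockdown's effect between day 3 and day 6 was itself tested. It passed for 1 of the 10 genes in siWdr5 (background 4.43% of all genes tested) and for 1 in siBrca1 (background 20.5%). *Dusp6* in siWdr5 was higher than the nt control at day 3 (log2-fold change 0.35) and lower at day 6 (−0.57), a difference of −0.92 (SE 0.24, limma with Benjamini-Hochberg adjustment, adjusted p = 0.0434, and 0.00280 to 0.152 among the alternatives). *Fgf7* in siBrca1 was higher by 1.63 at day 3 and by 0.65 at day 6, a difference of −0.98 (SE 0.31, adjusted p = 0.0370, and 0.0104 to 0.186 among the alternatives). Both kept their sign under every alternative, but neither held when single libraries were left out. The day 6 change of *Dusp6* in siWdr5 did not pass by itself (limma adjusted p = 0.0565). The cause of either difference was not tested.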

How the results depend on the processing

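Of 29 called changes of a member, 11 kept their call under every alternative other than the fold threshold, 18 kept it under those of these that keep all libraries, and none changed sign. The fold threshold was applied to the counts of members only. The depth limits *Fgfr3* and *Fgf18* most, with as few as 14 and 24 reads in a library, and 2 libraries a group leave wide intervals at day 6. With a filter of 2 *Fgf18* falls outside the genes tested and has no value there.

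The number of members called moved by more than 1.5 times in these cases. With a fold threshold it was 3 in siBrca1 and 0 in siBard1 at day 3, 4 in the nt control between the days, 0 for the difference between days in siWdr5 and in siBrca1, and 0 for each of the 3 comparisons between knockdowns. With no trend it was 1 in siBard1 at day 3 and 0 for both differences between days and all 3 comparisons between knockdowns. With only the compared groups it was 2 for the difference in siWdr5, 0 for that in siBrca1, 0 for siWdr5 against siBrca1 and 3 for siWdr5 against siBard1. With median centring it was 2 for the difference in siBrca1 and 2 for siWdr5 against siBard1, and this centring moved the median of all genes in the siWdr5 difference by −0.14. With quantile normalization and with limma-voom it was 0 for the difference in siBrca1. With no filter it was 0 for siWdr5 against siBrca1 and 1 for siBrca1 against siBard1, with a filter of 2 it was 1 for siWdr5 against siBrca1, and in the fit of all 16 libraries it was 0 for siWdr5 against both other knockdowns. The cause was not tested.

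With single libraries left out it ranged from 1 to 2 in siBard1 at day 3 (1 without either siBard1 library), from 0 to 2 in siWdr5 at day 6 (0 without siWdr5 replicate 2 and 1 without nt replicate 1), and from 4 to 5 in the nt control between the days (4 without nt day 3 replicate 2 or nt day 6 replicate 1). For the difference between days it was 0 in siWdr5 without any 1 library. In siBrca1 it ranged from 0 to 4, with 4 without siBrca1 day 3 replicate 1, 3 without siBrca1 day 6 replicate 2, 2 without nt day 6 replicate 2 and 0 without each of the other 5. For siWdr5 against siBrca1 it ranged from 0 to 3 (0 without siWdr5 replicate 1 and 1 without siWdr5 replicate 2 or siBrca1 replicate 2), for siWdr5 against siBard1 from 0 to 1 (0 without either siWdr5 library or siBard1 replicate 2), and for siBrca1 against siBard1 from 0 to 5 (5 without siBrca1 replicate 1, 1 without siBrca1 replicate 2 and 0 without siBard1 replicate 2). Where an arm was left with 1 library, that library was assumed to vary like the other groups.

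With the replicate block, the number of members called was 2 for the difference in siBrca1 and 3 for siWdr5 against siBard1, and it changed no other count by more than 1.5 times. The deviations of same-numbered libraries correlated across genes at a mean r of 0.0197 at day 3 (range −0.0931 to 0.0721 over 6 pairs of groups). At day 6 the mean r was 0.108 (−0.0696 to 0.260). The methods state no replicate block, and these values do not settle whether same-numbered libraries share an experiment. Over all genes tested, the block moved the number called from 11 to 48 in siBard1 at day 6. For the siBard1 difference between days it went from 7 to 178, and in siBrca1 at day 6 it stayed at 0.

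Changes that crossed 0 were all below the threshold, 22 of the 48 that were not called. With median centring the log2-fold change of *Spry2* was 0.031 at day 3 and −0.016 at day 6 in siWdr5, and that of *Spry4* −0.046 and of *Dusp6* −0.059 in siBard1 at day 6. With quantile normalization *Fgfr1* was −0.020 in siBrca1 at day 3 and −0.023 in siBard1 at day 6, *Spry2* −0.13 in siWdr5 and −0.030 in siBrca1 at day 6, *Spry4* −0.092 and *Dusp6* −0.12 in siBard1 at day 6, and *Fgf2* −0.010 in the nt control between the days. With single libraries left out, the ranges at day 3 were −0.19 to 0.54 for *Fgf10* and −0.082 to 0.011 for *Spry2* in siWdr5, −0.35 to 0.18 for *Fgfr3* and −0.090 to 0.022 for *Spry2* in siBrca1, and −0.32 to 0.22 for *Fgfr3* and −0.017 to 0.070 for *Spry2* in siBard1. At day 6 they were −0.22 to 0.00015 for *Fgf10* and −0.18 to 0.10 for *Spry4* in siWdr5. In siBrca1 they were −0.47 to 0.29 for *Fgf10*, −0.70 to 0.19 for *Fgf18*, −0.15 to 0.041 for *Fgfr1*, −0.072 to 0.16 for *Spry2*, −0.054 to 0.29 for *Spry4* and −0.30 to 0.25 for *Dusp6*. In siBard1 they were −0.067 to 0.82 for *Fgf18*, −0.040 to 0.095 for *Spry4* and −0.22 to 0.25 for *Dusp6*. Between the days of the nt control they were −0.061 to 0.34 for *Fgf2* and −0.029 to 0.11 for *Fgfr1*.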
